A study of Mus musculus with 6 samples.

Results

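Skeletal muscle fibers differ in the isoforms of myosin, troponin, tropomyosin and calcium-handling proteins that they build. Slow, type I fibers contract slowly, resist fatigue and carry the slow set of these isoforms, much of which is shared with the heart, and type IIA fibers combine a fast myosin with a high oxidative capacity. The genes described here are 10 genes of this slow and oxidative contractile program: the myosin heavy chains Myh7 and Myh2, the myosin light chains Myl2 and Myl3, the troponin subunits Tnnt1, Tnni1 and Tnnc1, the tropomyosin Tpm3, and the calcium-handling genes Atp2a2 and Casq2. They were read by 19 of the 22626 probe sets tested, each of which names a single gene in the platform annotation, and all 10 genes had at least 1. Another 2 probe sets name both Myh7 and Myh6 and were left out.

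Expression was measured with Affymetrix arrays in total RNA from muscle of 3 TFEB KO and 3 WT mice, all C57BL/6 and aged 1 month, with 1 array per mouse. TFEB, encoded by Tcfeb in older nomenclature, is a transcription factor of lysosomal genes. The TFEB KO mice carry floxed Tcfeb alleles deleted by MLC1f-Cre, and MLC1f is the fast light chain encoded by Myl1. The labels call the controls wild type, and the sources used here do not say whether these carry the floxed alleles or Cre, nor which muscle was taken. All values are on a log2 scale and were made by RMA (robust multi-array average), which subtracts background, equalises the arrays and joins the probes of a probe set into 1 value. A probe set passed the test at an adjusted p under 0.05 from limma.

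The arrays of a group correlated at 0.992 to 0.9967 (Pearson), and a TFEB KO with a WT array at 0.9889 to 0.9934. Tfeb itself read 7.10, 7.23 and 7.04 in TFEB KO muscle, against 8.61, 8.55 and 8.96 in WT muscle. The 10 measured markers of skeletal muscle, among them Acta1, Ckm and Ttn, read 9.71 to 14.89 in TFEB KO and 9.71 to 14.93 in WT arrays, where 14.93 is the highest value of any probe set. Of these markers 0 passed the test, where 1.57% of all genes did. The 2 of them with the smallest p were Ryr1 at -0.52 and Pygm at -0.16 (adjusted p = 0.109 and 0.385). Since several of the slow genes are also heart genes, markers of heart were read as well. The 10 measured heart markers that developing skeletal muscle does not share, among them Nppa, Nppb, Myl7, Tnni3 and Ryr2, read 3.66 to 5.25 in TFEB KO and 3.80 to 5.63 in WT arrays, where the 25th percentile of an array lies between 4.62 and 4.74. Their summed linear levels were 232 to 248 in TFEB KO and 243 to 278 in WT arrays.

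All 10 slow and oxidative genes lay lower in TFEB KO than in WT muscle on their brightest probe set, with log2 fold changes (TFEB KO minus WT) of -0.38 to -1.40 and a median of -0.61, where the median of all 12393 genes was -0.01. Of the 19 probe sets, 18 lay below 0. None of them passed the test: limma called 0 of 19 probe sets, where it called 1.60% of all probe sets in either direction and 0.844% as lower, and 0 of 10 genes on the brightest probe set, where it called 1.57% of all genes. At an unadjusted p under 0.05, 10 of the 19 were lower and 0 were higher, where 9.40% of all probe sets were lower. Myl3, Tpm3 and Atp2a2 have several probe sets each, which are not independent readings. Counted by gene on the brightest probe set, 6 of the 10 were lower and 0 higher, where 8.66% of all genes were lower. The TFEB KO arrays lay below every WT array in 7 of the 19 and above every WT array in 0, where these held for 13.3% and 9.77% of all probe sets. One WT mouse, WT 3, stood apart from WT 1 and WT 2 in these genes and lay near the TFEB KO mice, so that each value below is given with the array it belongs to. Results without WT 3 are given as a description only, since it was singled out for being low in these same genes. With 3 arrays against 3, an exact permutation test (two-sided) of a single gene cannot give a p below 0.10. In bulk muscle, fewer slow fibers and less RNA of the slow genes per fiber cannot be told apart.

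**Figure D1:**
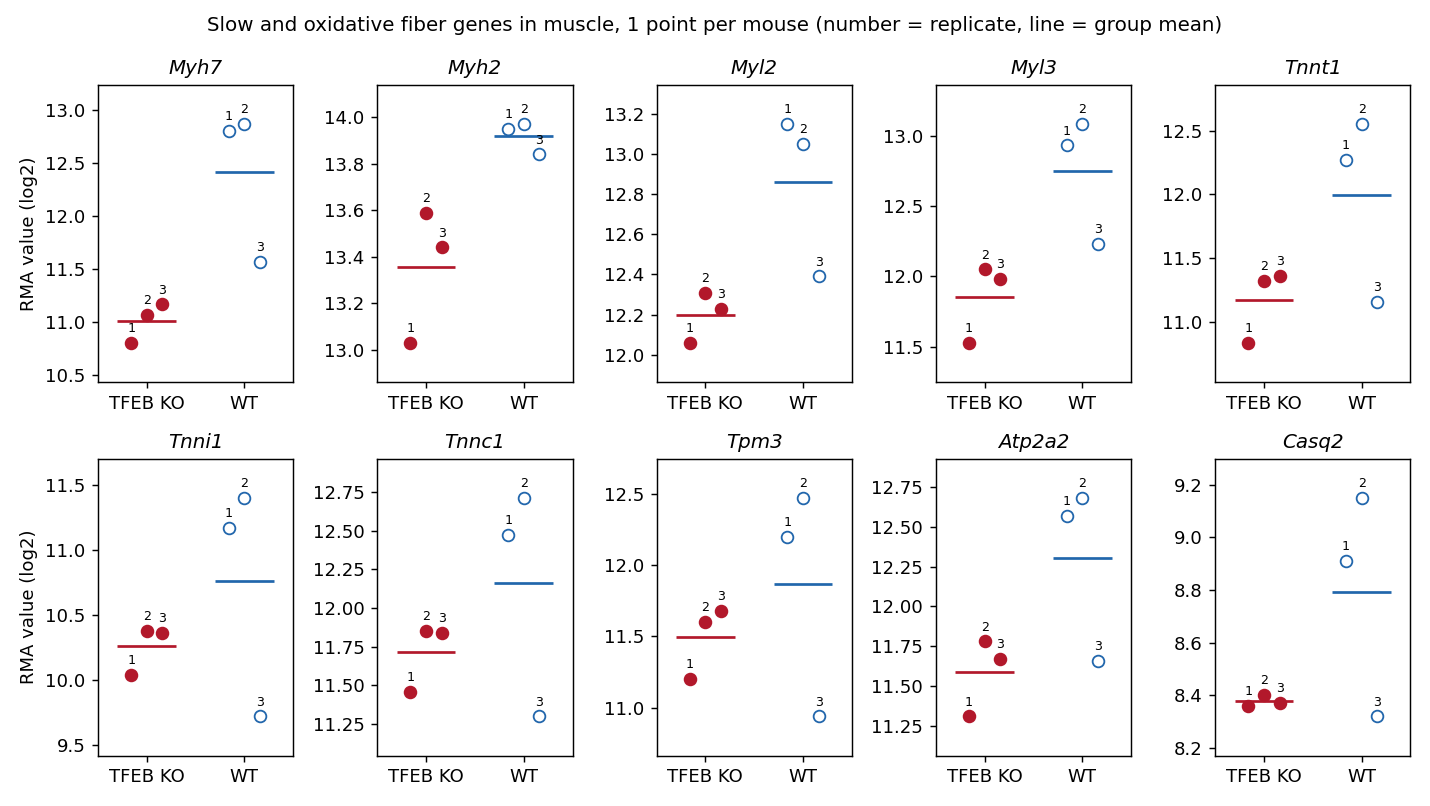
Level (RMA, log2, vertical axis) of each of the 10 genes on its brightest probe set, with 1 point per mouse, filled for TFEB KO and open for WT, the replicate number above each point and a line at each group mean. TFEB KO 1 is the lowest TFEB KO array and WT 3 the lowest WT array in all 10 genes, and WT 3 lies among or below the TFEB KO arrays in 6 of them.

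Myh7, the slow myosin heavy chain of type I fibers and of the ventricle, showed the largest difference of the 10 genes. It read 10.81, 11.07 and 11.17 in TFEB KO muscle, against 12.81, 12.87 and 11.57 in WT muscle. All TFEB KO arrays lay below all WT arrays, with WT 3 closer to the TFEB KO arrays than to WT 1 and WT 2. The log2 fold change was -1.40 ± 0.31 (SE, n = 3 mice each), or 2.65-fold lower, and missed the threshold (adjusted p = 0.0688 from limma). Without WT 3 the difference was -1.83 ± 0.13 (SE), or 3.55-fold lower, and passed (adjusted p = 0.00644 from limma). It also passed when limma weighted the arrays by their fit (-1.56, adjusted p = 0.0376), where TFEB KO 1 had the lowest weight, 0.65, followed by WT 3 with 0.74, and WT 2 the highest, 1.64.

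Myh2, the fast myosin heavy chain of the oxidative type IIA fibers, read 13.03, 13.59 and 13.44 in TFEB KO muscle, against 13.95, 13.97 and 13.84 in WT muscle. Here the WT arrays lay close together, WT 3 included, and the spread lay in the TFEB KO arrays, of which TFEB KO 1 was the lowest. The WT values of Myh2 came near the highest value of the arrays, 14.93, and whether this compressed their spread was not tested. The groups did not overlap, and the log2 fold change was -0.57 ± 0.14 (SE, n = 3 mice each, adjusted p = 0.0977 from limma), or -0.61 without WT 3 (adjusted p = 0.166).

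The light chains bind the neck of the slow myosin head, Myl2 as the regulatory and Myl3 as the essential light chain of slow fibers and ventricle. Myl2 read 12.06, 12.31 and 12.23 in TFEB KO muscle, against 13.15, 13.05 and 12.39 in WT muscle. The groups did not overlap, though WT 3 lay close to TFEB KO 2. The log2 fold change was -0.66 ± 0.19 (SE, n = 3 mice each, adjusted p = 0.128 from limma), and without WT 3 it was -0.90 ± 0.11 (SE) and passed (adjusted p = 0.0434). Myl3 has 3 probe sets, and on the brightest it read 11.53, 12.05 and 11.98 in TFEB KO muscle, against 12.93, 13.08 and 12.23 in WT muscle. The log2 fold changes of the 3 probe sets were -0.90, -0.81 and -0.76 (adjusted p = 0.0985 to 0.144 from limma), all 3 without overlap between the groups. Without WT 3 they were -1.16, -1.08 and -0.99, still short of the threshold (adjusted p = 0.0538 to 0.102).

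The troponin complex sits on the thin filament and makes contraction depend on calcium. Tnnt1, the slow subunit that binds tropomyosin, read 10.84, 11.32 and 11.36 in TFEB KO muscle, against 12.27, 12.55 and 11.16 in WT muscle. WT 3 lay within the range of the TFEB KO arrays, and WT 1 and WT 2 lay above it. The log2 fold change was -0.82 ± 0.33 (SE, n = 3 mice each, adjusted p = 0.246 from limma), or -1.24 without WT 3 (adjusted p = 0.0538). Tnni1, the slow inhibitory subunit, read 10.04, 10.38 and 10.36 in TFEB KO muscle, against 11.17, 11.40 and 9.72 in WT muscle. Its WT arrays spanned both the highest and the lowest value of the 6 arrays. The log2 fold change was -0.50 ± 0.38 (SE, n = 3 mice each, adjusted p = 0.557 from limma), and without WT 3 it was -1.03 ± 0.14 (SE) and passed (adjusted p = 0.0479). Tnnc1, the calcium-binding subunit shared by slow fibers and heart, read 11.46, 11.85 and 11.84 in TFEB KO muscle, against 12.47, 12.71 and 11.30 in WT muscle. It had the same order of arrays, with a log2 fold change of -0.44 ± 0.32 (SE, n = 3 mice each, adjusted p = 0.541 from limma), or -0.87 without WT 3 (adjusted p = 0.0823).

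Tpm3 encodes the slow muscle tropomyosin, which covers the myosin sites of the thin filament, and also tropomyosins of other cells. Its 5 probe sets fell into different patterns. On the brightest it read 11.20, 11.60 and 11.68 in TFEB KO muscle, against 12.20, 12.47 and 10.94 in WT muscle, and the second brightest had the same order of WT arrays. Their log2 fold changes were -0.38 and -0.35 (adjusted p = 0.638 and 0.666 from limma), and -0.84 and -0.82 without WT 3. On the 3 dimmer probe sets WT 3 lay nearer to the other WT arrays: it differed from the mean of WT 1 and WT 2 by -0.27, -0.03 and -0.10, and by -1.39 on both brighter ones. Of these 3, 1 was the only probe set of the 10 genes above 0, at 7.37, 7.12 and 7.22 in TFEB KO muscle, against 7.12, 7.10 and 7.08 in WT muscle (log2 fold change 0.13, adjusted p = 0.537 from limma). The sources used here do not say which transcripts of Tpm3 each probe set detects.

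Atp2a2 encodes SERCA2, the pump that returns calcium to the sarcoplasmic reticulum in slow fibers and heart. On the brightest of 4 probe sets it read 11.31, 11.78 and 11.67 in TFEB KO muscle, against 12.57, 12.68 and 11.66 in WT muscle. WT 3 lay within the TFEB KO range, and WT 1 and WT 2 lay above it. The log2 fold changes of the 4 probe sets, from brightest to dimmest, were -0.72, -0.77, -0.59 and -0.33 (adjusted p = 0.171 to 0.425 from limma). Without WT 3 they were -1.04, -1.08, -0.84 and -0.55, and the third of them passed (adjusted p = 0.0422). Casq2, the calcium buffer of the reticulum in slow fibers and heart, read 8.36, 8.40 and 8.37 in TFEB KO muscle, against 8.91, 9.15 and 8.32 in WT muscle. The TFEB KO arrays lay close to each other and just above WT 3. The log2 fold change was -0.42 ± 0.19 (SE, n = 3 mice each, adjusted p = 0.305 from limma), or -0.66 without WT 3 (adjusted p = 0.0758).

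**Figure D2:**
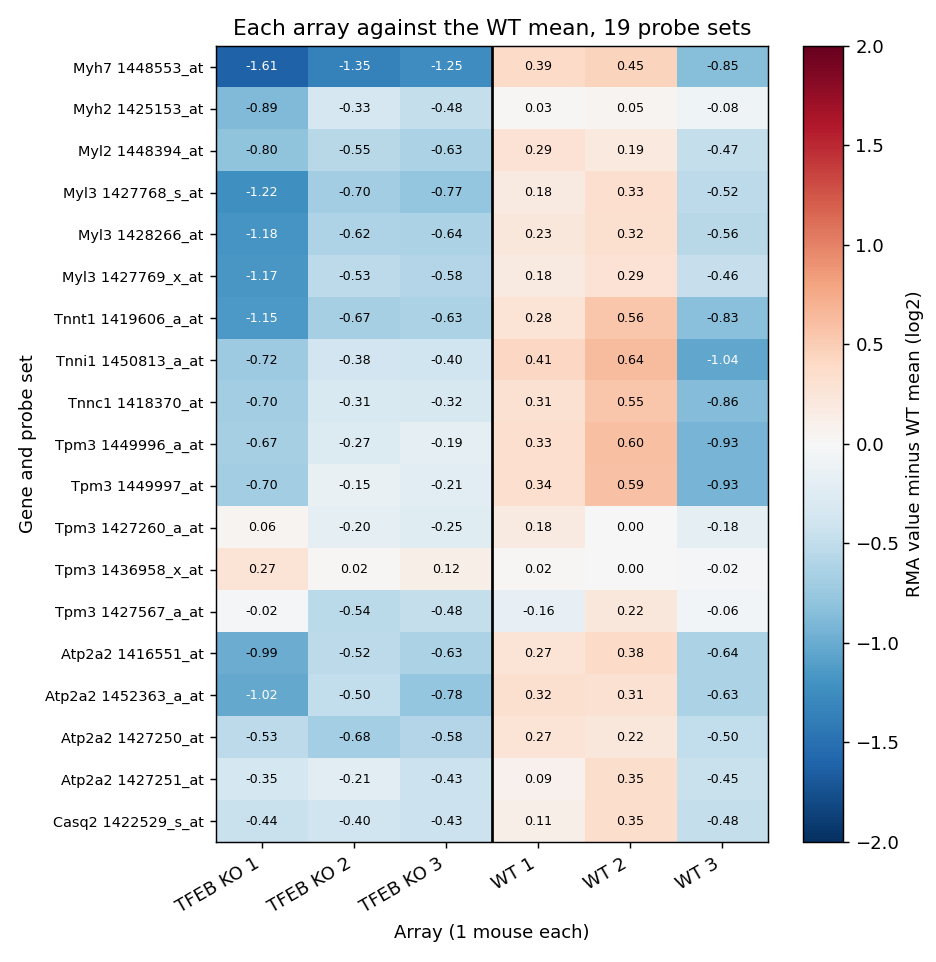
Difference of each array from the WT mean of the same probe set (log2, colour and printed value) for all 19 probe sets of the 10 genes, with TFEB KO arrays left and WT arrays right of the line. Blue runs through the TFEB KO arrays and WT 3 and red through WT 1 and WT 2, except in Myh2 and in the 3 dimmer probe sets of Tpm3.

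Within the WT group the genes moved together. WT 3 was the lowest WT array in 18 of the 19 probe sets, where it was the lowest in 40.0% of all probe sets, and WT 2 was the highest in 14 of 19, where it was the highest in 32.5%. On the brightest probe set of each gene, WT 3 was the lowest WT array in 10 of 10 genes. In the TFEB KO group, TFEB KO 1 was the lowest array in 14 of the 19 probe sets and the highest in 4, where it was the lowest in 35.1% and the highest in 33.8% of all probe sets, and on the brightest probe sets it was the lowest in 10 of 10 genes. The spread was larger in the WT group, with a median SD of 0.23 over TFEB KO and 0.65 over WT arrays for the 10 genes, where the medians of all genes were 0.13 over TFEB KO and 0.11 over WT arrays. After the group means were removed, 1 principal component held 96.8% of the remaining sum of squares of the 10 genes. That share was 40.9% over all 12393 genes, and in lists of like size it was 86.8% for 13 fast fiber genes, 73.1% for 10 skeletal muscle markers and 54.4% for 13 heart markers. For 13 other genes of slow or oxidative fibers it was 69.0%. Within the WT arrays alone the share was 99.4% for the 10 genes and 96.8% for these other slow or oxidative genes. There it was 93.5% for the fast fiber genes, 91.6% for the skeletal muscle markers and 63.7% over all genes. With 3 arrays in a group such a share is high for any set of genes. The deviations were not scaled, so that 1 gene with a large spread can set the share of a list. Sln had an SD of 1.30 over WT arrays, against a median of 0.24 in the other slow or oxidative list. Myh1 had 0.19, against a median of 0.03 in the fast fiber list. These shares alone therefore do not show that the genes of a list moved together. Of the remaining sum of squares of the 10 genes, 88.7% lay in the WT arrays, where the share over all genes was 40.3%.

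The place of WT 3 against the TFEB KO arrays differed between genes. WT 3 lay above every TFEB KO array in 7 of the 19 probe sets, those of the myosin genes Myh7, Myh2, Myl2 and Myl3 and 1 of Atp2a2. It lay within their range in 5, and below every TFEB KO array in 7, those of Tnni1, Tnnc1 and Casq2, 3 of Tpm3 and 1 of Atp2a2. Over all probe sets these shares were 28.3%, 46.2% and 25.5%. WT 3 differed from the TFEB KO mean by 0.56 for Myh7 and 0.48 for Myh2, but by -0.54 for Tnni1, -0.41 for Tnnc1 and -0.55 for Tpm3.

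**Figure D3:**
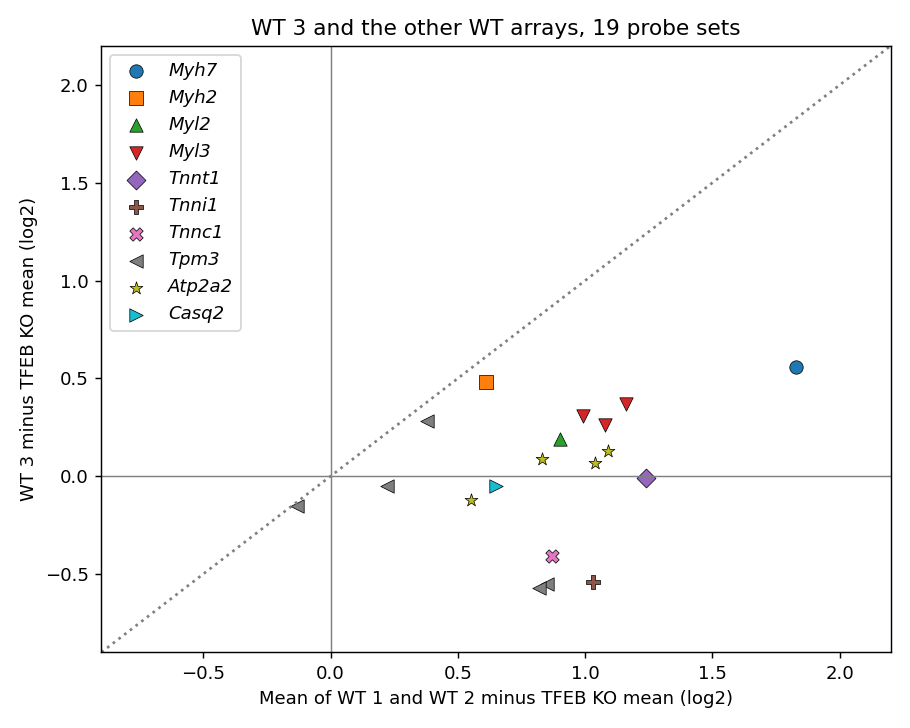
Difference of WT 3 from the TFEB KO mean (log2, vertical axis) against the difference of the mean of WT 1 and WT 2 from the TFEB KO mean (log2, horizontal axis), with 1 point per probe set. On the dotted line WT 3 would equal the other WT arrays. Myh2 lies near it, Myh7 lies below it by the -1.27 between WT 3 and the other WT arrays, still at a positive height, and Tnni1, Tnnc1 and the 2 brighter probe sets of Tpm3 lie furthest below 0.

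WT 3 was singled out because it was low in these genes, so that larger differences without it follow in part from that choice and are given as a description. Without WT 3, limma called 4 of the 19 probe sets as lower (1 each of Myh7, Myl2, Tnni1 and Atp2a2), and 16 were lower at an unadjusted p under 0.05. Over all probe sets, for which WT 3 was not chosen, the shares were 0.186% and 9.29%, and nothing is read from the difference. The median over the 10 genes was then -0.96. With any other single array left out, 0 of the 19 were called and the median ran from -0.49 without TFEB KO 1 to -0.70 without TFEB KO 2. All 10 genes stayed below 0 with each array left out, the smallest difference being -0.08, for Tpm3. Why WT 3 differed was not tested.

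On their brightest probe sets, the fast counterparts of these genes lay near 0. The fast fiber list holds 14 genes, of which 13 were measured, at a median log2 fold change of 0.00 and a range of -0.13 to 0.09. None passed the test on the brightest probe set (adjusted p of 0.506 to 0.999 from limma), where 1.57% of all genes did. At an unadjusted p under 0.05, 0 of 13 did so, where 8.66% of all genes were lower and 8.49% higher. The TFEB KO arrays lay below every WT array in 4 of the 13 and above every WT array in 1. Over all 12393 genes these counts were 1601 and 1344. They also lay below every WT array in 4 of the 10 slow and oxidative genes and 4 of the 10 skeletal muscle markers. Myh4, the myosin of the fast glycolytic type IIB fibers, read 14.61, 14.56 and 14.66 in TFEB KO muscle, against 14.57, 14.60 and 14.66 in WT muscle. Among the direct counterparts, Myl1 was at 0.02, Mylpf at 0.05, Tnnt3 at 0.03, Tnni2 at 0.05, Tnnc2 at 0.02, Tpm1 at -0.06, Casq1 at -0.06, Atp2a1, the fast calcium pump, at -0.13, and Myh1, the myosin of type IIX fibers, at 0.09. In this list WT 3 had a median deviation of 0.02 from the WT mean, where the median SD over WT arrays was 0.03. The summed linear level of the list was 290069, 290786 and 302062 in WT 1, WT 2 and WT 3, so that WT 3 was the highest. In TFEB KO arrays this sum was 292925, 288769 and 298235. Tpm1 also has 2 dimmer probe sets that passed the test as lower, at -0.55 and -0.70 (adjusted p = 0.0437 and 0.0342 from limma). All fast fiber values on the brightest probe sets lay at 13.31 to 14.79, close to the highest value of the arrays at 14.93, and whether this compressed their differences was not tested.

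**Figure D4:**
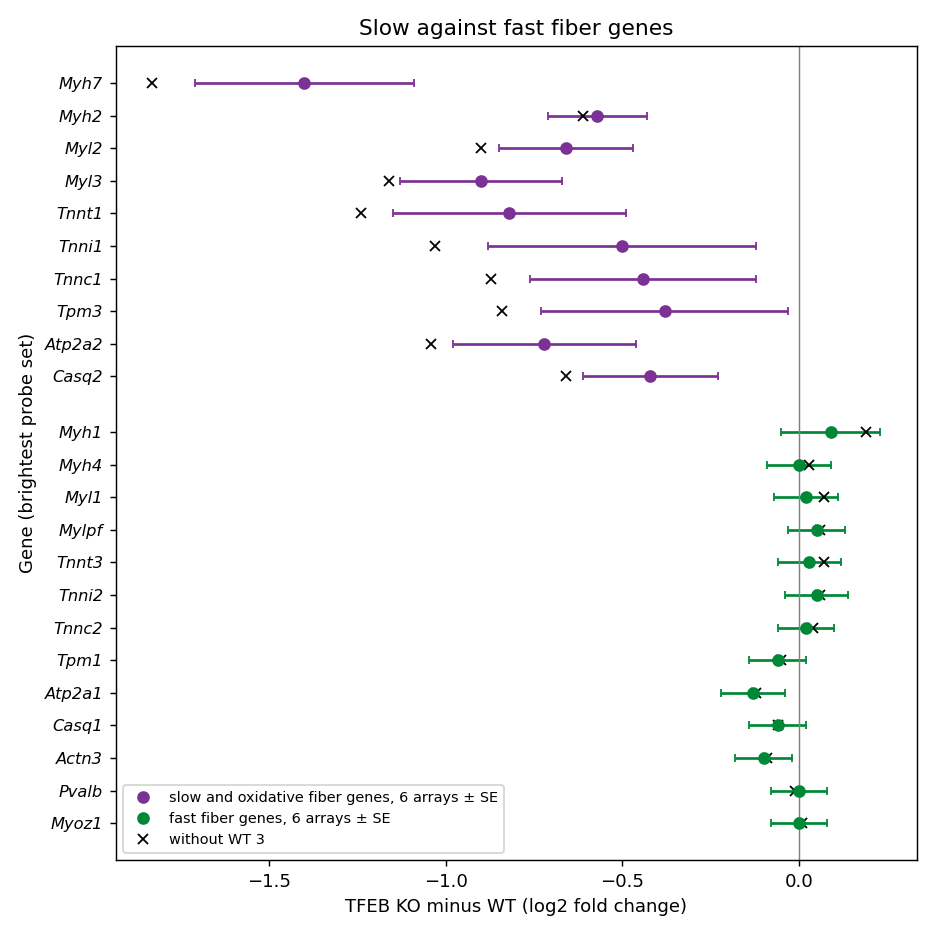
Log2 fold change, TFEB KO minus WT (horizontal axis), of the 10 slow and oxidative fiber genes and 13 fast fiber genes on the brightest probe set, as points with bars of 1 SE over 6 arrays, and as crosses without WT 3. The slow and oxidative genes lie between -0.38 and -1.40 and all 10 move further left without WT 3, while the fast genes lie between -0.13 and 0.09.

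Other genes of slow or oxidative fibers lay on both sides of 0. Of 16 such genes 13 were measured, with a median log2 fold change of -0.01 (-0.19 without WT 3), 8 of them below 0. At an unadjusted p under 0.05, 3 of the 13 were lower (Pln, Actn2 and Ldhb) and 0 higher. Over all genes 8.66% were lower and 8.49% higher. WT 3 was low in this list as well, with a median deviation from the WT mean of -0.26, against -0.74 for the 10 slow and oxidative genes. Limma called 1, where it called 0.702% of all genes as lower on the brightest probe set. This was Pln, phospholamban, the inhibitor of SERCA2. It read 5.33, 5.55 and 5.33 in TFEB KO muscle, against 6.09, 6.12 and 5.98 in WT muscle. All these values lay below the median of any array, which was 6.48 to 6.54. WT 3 lay with the other WT arrays, and the log2 fold change was -0.66 ± 0.10 (SE, n = 3 mice each, adjusted p = 0.0270 from limma). Its 2 dimmer probe sets were at -0.32 and -0.31 (adjusted p = 0.191 and 0.195), and the call was kept without TFEB KO 1 (adjusted p = 0.0433) and lost without any other single array (0.055 to 0.12). Sln, sarcolipin, another inhibitor of the pump, read 8.38, 8.13 and 8.11 in TFEB KO muscle, against 8.12, 8.85 and 6.32 in WT muscle, so that WT 3 was low and WT 1 was not above the TFEB KO arrays. The slow cytoskeletal gene Actn2 was at -0.39 and Ldhb at -0.50 (adjusted p = 0.106 and 0.116 from limma). Mb, the myoglobin of oxidative fibers, was at 0.15 (adjusted p = 0.47).

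Slow fiber genes are induced by calcium signaling through calcineurin and its NFAT factors, with MEF2, TEAD and other regulators. Of 33 genes listed for this control 30 were measured, with a median log2 fold change of 0.00. At an unadjusted p under 0.05, 4 of the 30 were lower and 3 higher, where 8.66% of all genes were lower and 8.49% higher. Limma called 1 of the 30, Rcan1, as higher (0.871% of all genes were called higher). Rcan1 binds and restrains calcineurin, and its own transcript is induced by calcineurin. It read 11.50, 11.40 and 11.54 in TFEB KO muscle, against 10.15, 10.58 and 10.51 in WT muscle. It rose 2.09-fold, a log2 fold change of 1.06 ± 0.13 (SE, n = 3 mice each, adjusted p = 0.0146 from limma), and its dimmer probe set rose by 0.85 (adjusted p = 0.0306). The call on the brighter probe set was lost without TFEB KO 2 (adjusted p = 0.0517), and that on the dimmer one without any single array but WT 2 (0.0509 to 0.123). The lowest of the list was Camk2a, a calcium-dependent kinase, which read 5.53, 4.81 and 5.26 in TFEB KO muscle, against 6.22, 5.88 and 6.01 in WT muscle. Its groups did not overlap and it missed the threshold (-0.84, adjusted p = 0.0618 from limma), which it passed with array weights (0.0414), with the replicate block (0.0311) and without TFEB KO 1 (0.036). The calcineurin subunits Ppp3ca, Ppp3cb and Ppp3r1 were at -0.11, -0.19 and 0.25 (adjusted p = 0.625, 0.401 and 0.203), and Nfatc1 was at -0.22 (adjusted p = 0.494).

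Other fiber and cell types were read through their own lists. Of all 13 measured heart markers 0 passed the test, where 1.57% of all genes did. The 2 with the smallest p were genes that developing skeletal muscle also expresses, Myl4 at 0.44 and Tnnt2 at 0.64 (adjusted p = 0.0801 and 0.104 from limma). Of 10 genes of developing fibers, limma called 2 as higher (0.871% of all genes), and 6 were higher at an unadjusted p under 0.05 (8.49% of all genes), with a median log2 fold change of 0.42. Myog, a regulator of muscle differentiation, rose by 0.87 and Myh3, the embryonic myosin heavy chain, by 1.18 (adjusted p = 0.0251 and 0.0475 from limma). The Myog call was kept only without TFEB KO 1 (0.0344) and the Myh3 call only without WT 2 (0.0451), with 0.055 to 0.182 otherwise, without WT 3 included. The summed linear level of this list without Actc1, which makes up most of the sum, was 1198, 1069 and 1188 in TFEB KO arrays, against 820, 865 and 799 in WT arrays.

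Smooth muscle genes moved with the groups as well. Of 8 such genes, limma called 2 as lower (0.702% of all genes), and 6 were lower at an unadjusted p under 0.05 (8.66% of all genes), with a median log2 fold change of -0.44. Mylk, the myosin light chain kinase, fell by 0.76 and Acta2, the smooth muscle actin, fell by 0.70 on the log2 scale (adjusted p = 0.0174 and 0.0335 from limma). On these brightest probe sets, the Mylk call was lost without TFEB KO 2, TFEB KO 3, WT 1 or WT 3 (0.0518 to 0.0761), and the Acta2 call without TFEB KO 2, TFEB KO 3, WT 1 or WT 2 (0.0874 to 0.138). A dimmer Mylk probe set was at -1.03 (adjusted p = 0.011 from limma) and kept its call with each array left out (0.0115 to 0.0456). Another of Mylk was at -0.14 (adjusted p = 0.556), and a dimmer one of Acta2 at 0.01 (adjusted p = 0.969). The summed linear level of this list without Des, which skeletal muscle shares and which makes up most of the sum, was 1916, 1981 and 1916 in TFEB KO arrays, against 3079, 2930 and 2519 in WT arrays. WT 3 was the lowest WT array in this sum too, and in 4 of the 7 genes, where it was the lowest in 40.0% of all probe sets. In the smooth muscle genes Smtn and Lmod1 it was the highest WT array, at 9.09 and 6.06. Lmod1 lay above 0, at 0.13 (adjusted p = 0.619 from limma). Myh11, the smooth muscle myosin heavy chain, read 6.23, 6.69 and 6.57 in TFEB KO muscle, against 7.49, 7.42 and 6.92 in WT muscle (-0.78, adjusted p = 0.0725 from limma). Tagln, another smooth muscle marker, read 8.35, 8.86 and 8.84 in TFEB KO muscle, against 9.49, 9.39 and 8.77 in WT muscle (-0.53, adjusted p = 0.246 from limma). Both had WT 3 near or among the TFEB KO arrays, as in the slow genes, while Mylk did not, at 8.60 in WT 3 against 8.72 and 8.46 in the other WT arrays. The part of smooth muscle or of developing fibers in the slow gene result was not tested.

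Genes outside the program whose deviations from the group means ran most like the mean of the 10 genes were ranked by Pearson's r over the 6 arrays, as a description. Of 1997 genes with an SD of deviations of at least 0.2 and a mean of at least 5, 55 had an r of 0.9 or more (2.75%). Each of the 10 genes was set against the mean of the other 9 instead, which gave 0.933 to 0.997 for all but Myh2, with 0.507. The 10 most alike were Doxl1, Mustn1, Bdh1, Slc16a3, Atf7ip, Agpat3, Hoxa11os, Dnaja4, Hspb7 and Arntl, with r from 0.981 to 0.998. Their differences between the groups went both ways, from -0.55 for Bdh1, an enzyme of ketone body use, to 0.74 for the clock gene Arntl, and 0 of the 10 passed the test (adjusted p of 0.139 to 0.872 from limma). Mustn1 read 10.37, 10.64 and 10.56 in TFEB KO muscle, against 10.34, 10.45 and 9.59 in WT muscle. Hspb7, a small heat shock protein of muscle, read 11.58, 12.15 and 12.08 in TFEB KO muscle, against 11.87, 11.78 and 10.61 in WT muscle. In both genes WT 3 was the lowest array, and WT 1 and WT 2 did not stand above the TFEB KO arrays as they did in the slow genes. In Doxl1, Bdh1 and Hoxa11os WT 1 and WT 2 did lie above every TFEB KO array, and in the others of the 10 they did not. Bdh1 read 8.86, 9.11 and 9.05 in TFEB KO muscle, against 9.67, 9.81 and 9.18 in WT muscle.

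Because the genes moved together, their promoters were set side by side. The table of RefSeq promoters used here, on GRCm38.p6, was matched for 9 of the 10 genes, all but Atp2a2. The 250 bases before the most upstream start listed are printed for Myh7 and Myl3, where WT 3 lay above the TFEB KO arrays, and for Tnni1 and Tnnc1, where it lay below them. Capitals mark MCAT motifs, the TEAD site CATTCC, which reads GGAATG from the other strand. The windows are chr14:54994627-54994876 (minus strand) for Myh7, chr9:110763428-110763677 (plus strand) for Myl3, chr1:135799171-135799420 (plus strand) for Tnni1 and chr14:31208062-31208311 (plus strand) for Tnnc1.
Myh7: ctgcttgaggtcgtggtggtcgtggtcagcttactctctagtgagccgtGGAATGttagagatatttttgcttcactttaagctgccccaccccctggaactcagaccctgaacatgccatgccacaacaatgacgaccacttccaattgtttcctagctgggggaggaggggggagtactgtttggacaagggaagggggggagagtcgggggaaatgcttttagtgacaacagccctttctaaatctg
Myl3: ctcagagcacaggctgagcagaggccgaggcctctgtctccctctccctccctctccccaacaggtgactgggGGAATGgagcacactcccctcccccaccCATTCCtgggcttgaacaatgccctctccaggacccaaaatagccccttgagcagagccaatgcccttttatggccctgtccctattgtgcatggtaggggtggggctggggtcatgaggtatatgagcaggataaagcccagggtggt
Tnni1: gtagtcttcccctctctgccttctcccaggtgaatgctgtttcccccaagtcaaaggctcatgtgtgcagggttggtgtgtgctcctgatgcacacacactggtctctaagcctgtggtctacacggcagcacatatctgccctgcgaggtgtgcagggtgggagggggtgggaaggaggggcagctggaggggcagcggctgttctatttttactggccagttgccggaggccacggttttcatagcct
Tnnc1: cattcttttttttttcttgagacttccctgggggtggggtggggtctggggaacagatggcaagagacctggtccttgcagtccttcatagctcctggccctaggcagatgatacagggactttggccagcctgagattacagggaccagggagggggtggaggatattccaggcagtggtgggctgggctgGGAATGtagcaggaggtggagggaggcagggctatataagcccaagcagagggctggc
The MCAT motif was found 201 bases before the start of Myh7, 177 and 149 bases before that of Myl3 and 58 bases before that of Tnnc1, and in none of the other 6 windows. That is 3 of 9 genes, where 12.6% of the windows of all 27018 genes hold it on either strand. The E-box CANNTG, with any bases at N, was in 8 of 9 windows (66.1% of all windows) and the NFAT core GGAAA in 6 of 9 (55.6%). The MEF2 motif was in 1 of 9, that of Casq2 (3.02%), and the TATA box TATAAA, read on the strand of the gene, in 1 of 9, that of Tnnt1 (8.13%). The E-box CACGTG, the core of the TFEB site, was in 0 of 9 (6.04%), which says only that these letters are not in these windows. All motifs but TATAAA were searched on both strands, and none of the matches overlapped another, CACGTG being itself an E-box. The MCAT motif was in Myh7 and Myl3, where WT 3 lay above the TFEB KO arrays, and in Tnnc1, where it lay below them. Whether the motif bears on the place of WT 3 was not tested, and 9 windows are too few to judge it.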

How the data were processed

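Muscle RNA of 3 TFEB KO and 3 WT mice was hybridised to 1 Affymetrix array per mouse. The authors deposited log2 values for every probe set on each array, made with RMA through the R package affy per the labels, with versions and settings not given in the sources used here. Normalizing between arrays takes out most of any shift that the majority of genes share. Precision is set by the number of arrays.

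The 64 control probe sets of the 22690 on the array were not tested. Of the other 22626, 20380 name 1 gene in the platform annotation, 691 several and 1555 none, and 20351 of the 20380 matched a RefSeq gene through their Entrez ID, with 0 symbols changed. Groups were taken from the sample titles and compared with limma 3.58.1 (lmFit, eBayes; R 4.3.3). Tests were two-sided and p-values were adjusted by Benjamini-Hochberg over all probe sets, with a threshold of 0.05. A gene was judged on its brightest probe set, that with the highest mean over the 6 arrays. Plots were drawn with matplotlib 3.10.9 and tables written with pandas 2.3.3 (Python 3.11.15). The fits were tested on simulated data.

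The genes and lists (fast fiber, other slow fiber, regulators, heart, skeletal muscle, developing fiber and smooth muscle) were chosen with earlier results of these data known. Named are all 10 genes, the fast counterparts, of each list up to 4 genes past the test or the 2 with the smallest p, and the 10 genes with the most similar deviations. Sln, Actn2, Ldhb, Mb, Camk2a, Myh11, Tagln, Smtn, Lmod1, Acta1, Ckm, Ttn, Ppp3ca, Ppp3cb, Ppp3r1, Nfatc1 and the heart markers other than Myl4 and Tnnt2 fall outside this rule and were chosen once their values had been seen.

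The alternatives were a second quantile normalization, arrays shifted to the same 75th percentile, probe sets with a mean under 5 left out, control probe sets kept, array weights, moderation with a trend and robust to outliers, the methods' t-test, a replicate block, averaging the probe sets of a gene, and leaving out each array in turn.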

Additional observations from a re-analysis of the deposited data

How the results depend on the processing

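All 150 values of the 10 genes under the alternatives lay below 0. Of these, 4 passed the test: Myh7 with array weights, and Myh7, Myl2 and Tnni1 without WT 3. With array weights 1 probe set and 1 gene of the slow and oxidative list and 2 regulators were called. The methods' t-test after adjustment called 1 probe set in all, with 0 other slow fiber genes and 0 regulators, and 3 of the 19 slow and oxidative probe sets were lower by it at an unadjusted p under 0.05. Averaging the probe sets of each gene called 1 fast fiber gene, Tpm1. With each array left out, the count of all probe sets called was 438 without TFEB KO 1 and 21 to 93 without any other, the lowest without WT 1, against 361 with all 6. Of the slow and oxidative list 0 to 4 probe sets and 0 to 3 genes were called, of other slow fiber genes 0 to 1 and of regulators 0 to 2, and the median of the fast fiber list ran from -0.02 to 0.03. No heart marker was called under any alternative. The correlations do not settle whether replicate numbers pair the arrays. The deviations of same-numbered arrays correlated at 0.088, 0.048 and 0.265 across probe sets. TFEB KO 1 and TFEB KO 3 correlated best with the WT array of the same number, and TFEB KO 2 with WT 1 (0.172). With the replicate number as a block, 297 probe sets and 2 regulators were called, and 0 of the 10 genes. All other alternatives kept the counts within 1.5 times. Precision is limited by 3 arrays per group.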

Other observations

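Tpm1, the tropomyosin of fast fibers, was at -0.06 on its brightest probe set, which read 14.73, 14.69 and 14.68 in TFEB KO muscle, against 14.75, 14.74 and 14.78 in WT muscle. Its 2 dimmer probe sets both passed the test. The first read 7.46, 7.51 and 7.24 in TFEB KO muscle, against 7.97, 7.99 and 7.91 in WT muscle, a log2 fold change of -0.55 (adjusted p = 0.0437 from limma). The second read 7.83, 7.71 and 8.06 in TFEB KO muscle, against 8.59, 8.45 and 8.65 in WT muscle, a log2 fold change of -0.70 (adjusted p = 0.0342 from limma). WT 3 lay with the other WT arrays in both. These calls were lost with each array left out (adjusted p of 0.053 to 0.163), except that of the second without TFEB KO 3 (0.0424). The first also missed the threshold with the replicate block (0.0524) and with arrays shifted to the same 75th percentile (0.0543), where the second passed (0.0333 and 0.0287). Both missed it with the methods' t-test after adjustment (adjusted p = 0.169 and 0.183). Which transcripts of Tpm1 each probe set detects was not examined.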
